A study of Mus musculus with 2 samples.

Results

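The 10 genes described here set the tone of blood vessels or report the flow that runs along their wall. They are Klf2 and Klf4, the nitric oxide synthases Nos2 and Nos3, the endothelin genes Edn1, Ednrb and Ece1, and the prostanoid genes Ptgs1, Ptgs2 and Ptgis. They were taken by name from the 17139 genes listed in both libraries, and all 10 were found. In flowing blood the endothelium senses shear stress and raises Klf2 and Klf4, zinc finger factors that keep the vessel wall quiescent and favour the endothelial nitric oxide synthase, encoded by Nos3, over the constrictor endothelin-1, encoded by Edn1. Nitric oxide and prostacyclin relax the smooth muscle beneath, whereas endothelin-1 contracts it and also acts back on the endothelium through the B-type receptor, encoded by Ednrb. Tumour vessels are known for slow and irregular flow and for hypoxia, which is among the classical inducers of Edn1.

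The data were single-cell RNA sequencing of endothelial cells (ECs), sorted as live CD45-/CD31+ cells from subcutaneous LLC tumours of C57BL/6 mice, grown from a lung carcinoma line (Lewis) that arose in that strain. Both groups were wild-type mice with such a tumour, of the strain C57BL/6 in the labels and C57BL/6 J in the methods, described as adult in the labels and as 8 to 9 weeks old males in the methods. The PBS group received 70 µl of PBS into the tumour, and the cGAMP group received 14 µg of cGAMP, a cyclic dinucleotide agonist of STING, in the same volume. Tumours were sampled 24 h later according to the methods, although a supplementary legend gives 6 h, and the kit is version 3 in the methods and version 2 in the labels. Each group was 1 mouse and 1 library, with no replicate, so that every difference between the libraries includes any difference between 2 mice, 2 tumours and 2 preparations. No test was possible and no p-value is given.

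In the PBS library there were 2517 ECs and 92081146 unique molecular identifiers (UMIs), with a median of 29780 per cell. In the cGAMP library there were 1340 ECs and 63366746 UMIs (median 41178 per cell), and 1 cell barcode occurred in both libraries. The median mitochondrial share was 4.49% in PBS and 2.87% in cGAMP cells, with 855 and 92 cells above 5%, and its part in the differences between the libraries was not tested beyond leaving those cells out. Levels are sums over cells of the UMIs found for a gene, scaled to 1000000 UMIs of all genes in those cells (CPM), and differences as log2 ratios. Deep cells weigh more in such sums. Intervals are exact 95% intervals (Poisson for a level, conditional binomial for a ratio, Clopper-Pearson for a share) and cover counting error only. A gene entered the counts below when it reached 5 CPM in either library, and it was called apart at 2-fold or more. The authors had removed cell types without Pecam1, and all 5 general endothelial markers, led by Cdh5, were present in both libraries. Of the other cell types, markers of macrophages summed to 15.3 CPM in the PBS library and 31.2 CPM in the cGAMP library, those of neutrophils to 0.65 and 17.0 CPM, and those of fibroblasts to 3.84 and 2.23 CPM.

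Promoter windows from RefSeq on GRCm38.p6, from 250 bases before to 50 bases after an annotated start, were found for 7 of the 10 genes (Klf2, Klf4, Edn1, Ednrb, Ece1, Ptgs1 and Ptgs2), as 10 windows in all. Of these, 3 are shown. Klf2 and Klf4 are shown because no other pair of the 10 genes was so closely tied across single cells, and Edn1 because its level was several times higher in a single small cluster than in any other. Klf2 lies on the plus strand of chromosome 8 (window chr8:72318812-72319111), Klf4 on the minus strand of chromosome 4 (window chr4:55532426-55532725) and Edn1 on the plus strand of chromosome 13 (window chr13:42301226-42301525). Capitals mark matches to the letters searched, other than CACCC, read on both strands. In Klf2 they mark the site for MEF2, the factor family through which flow is known to act on this gene. In Klf4 they mark ACGTG, the core of the hypoxia response element, on both strands, overlapping as a palindrome. In Edn1 they mark first the letters (GAAA, any 2 bases, GAAA) of an interferon-stimulated response element (ISRE) on the reverse strand, and then ACGTG on the reverse strand.
Klf2: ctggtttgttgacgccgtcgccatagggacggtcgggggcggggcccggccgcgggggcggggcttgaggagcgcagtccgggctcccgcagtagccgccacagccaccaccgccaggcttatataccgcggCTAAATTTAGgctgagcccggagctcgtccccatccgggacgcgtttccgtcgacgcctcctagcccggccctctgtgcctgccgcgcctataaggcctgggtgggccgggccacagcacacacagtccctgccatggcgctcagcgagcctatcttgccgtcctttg
Klf4: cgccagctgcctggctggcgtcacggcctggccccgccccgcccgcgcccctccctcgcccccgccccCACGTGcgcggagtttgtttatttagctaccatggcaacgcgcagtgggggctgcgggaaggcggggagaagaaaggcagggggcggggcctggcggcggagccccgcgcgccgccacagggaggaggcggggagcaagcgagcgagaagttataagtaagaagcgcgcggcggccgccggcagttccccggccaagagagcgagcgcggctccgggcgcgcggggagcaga
Edn1: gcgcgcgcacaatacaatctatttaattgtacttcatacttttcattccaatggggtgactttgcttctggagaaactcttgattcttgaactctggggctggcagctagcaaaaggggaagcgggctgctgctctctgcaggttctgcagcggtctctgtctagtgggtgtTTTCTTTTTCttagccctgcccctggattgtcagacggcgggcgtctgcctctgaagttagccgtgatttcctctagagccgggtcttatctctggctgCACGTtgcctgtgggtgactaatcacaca
The MEF2 match in Klf2 began 118 bases before the start, and MEF2 matched 1 of the 10 windows and 0.557% of all 32851 promoter windows. The ISRE letters in Edn1 began 78 bases before the start and were found in 2 of the 10 windows (Edn1 and 1 of 4 windows of Ece1) against 3.44% of all windows. ACGTG began 22 bases after the start in Edn1 and was found in 4 of the 10 windows (Klf4, Edn1, Ptgs2 and 1 of Ece1) against 19.6% of all windows. CACCC, the letters that Klf2 and Klf4 themselves bind, was in 7 of the 10 windows and in 57.5% of all windows. Of the 4 windows of Ece1, 2 overlap and hold the same CACCC, so that 1 site was counted in both. The other letters searched were TTCNNNGAA (8.3% of all windows), TGACGTCA (1.79%), TGANTCA (7.81%), TATAAA (13.6%) and the NF-kB site (4.51%), and none of the 10 windows held them. A match is a string of letters and was not tested as a binding site.

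Over whole libraries, Klf2 was the gene most above and Nos2 the 1 gene below its PBS level among those with enough UMIs to compare. Of the 10, 8 reached 5 CPM, and 7 of these were higher and 1 was lower in the cGAMP library. With the proportions of the cell clusters described below held equal, 4 were higher and 4 (Klf4, Nos2, Edn1 and Ptgs1) lower. None of the 8 was 2-fold apart, beside 1.82% of 9508 genes at least 2-fold higher and 1.69% at least 2-fold lower. The median log2 ratio of the 8 was 0.11, beside -0.08 for all genes that reached 5 CPM, of which 3840 were higher and 5668 lower. The remaining 2 genes, Ptgs2 and Ptgis, were below the minimum in both libraries, and Ptgs2 had a log2 ratio of 1.18 on few UMIs.

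**Figure D1:**
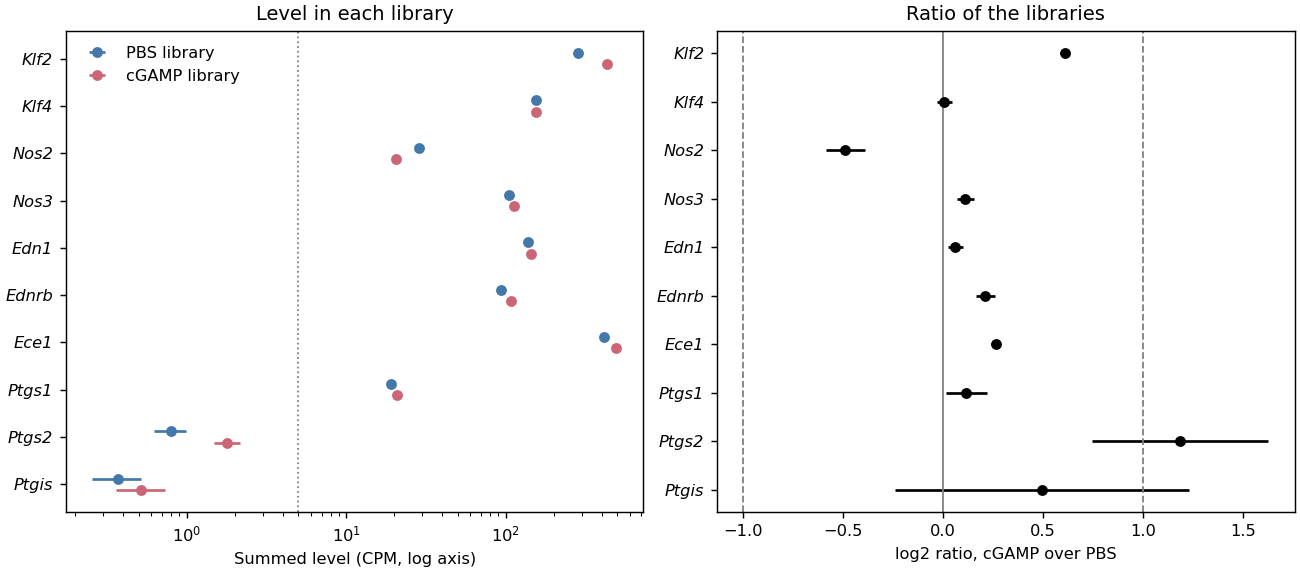
Summed level of each of the 10 genes in the PBS and cGAMP libraries (left, CPM on a log axis; dotted line, the minimum of 5 CPM) and the log2 ratio of cGAMP over PBS (right; dashed lines, 2-fold). Points are 1 library or 1 ratio and bars are 95% counting intervals; Klf2 lies farthest to the right among the 8 genes above the minimum, at 0.61, and Nos2 is the 1 gene on the left, at -0.49.

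To place the genes in EC states, the cells of both libraries were clustered together after the 10 genes, 71 other genes of the same pathways and genes that were 2-fold apart between the libraries had been left out. This gave 8 clusters, which are named "-like" only where lists of markers allowed it. Cluster 0 (706 PBS and 295 cGAMP cells, led by Gal and Chga) was tip-like, as was the small cluster 7 (55 and 29 cells), whose leading genes Bnip3, Mgarp, Egln3 and Adm include known targets of hypoxia. Cluster 1 (661 and 258 cells, led by Gja5 and Gja4) was arterial-like, and so was cluster 5 (65 and 57 cells, led by Slc6a6 and Lpl), in which 5 of 7 capillary markers were also raised. Cluster 2 (498 and 188 cells, led by Ube2c and Cenpf) was proliferative. Cluster 3 (289 and 326 cells, led by Ackr1 and Selp) was stalk-like. Cluster 4 (195 and 135 cells, led by Ung and Hells) and cluster 6 (48 and 52 cells, led by Igfbp5 and Ctsh) stayed unnamed. In cluster 6 all 12 stalk-like markers were raised, but none of them was among its 10 leading genes. The median depth of cluster 6 was 19165 UMIs per PBS cell and 27033 per cGAMP cell, below that of either library.

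The 8 genes that reached 5 CPM were spread unevenly over these clusters. In cluster 6, 5 of the 8 (Klf2, Klf4, Nos3, Ednrb and Ptgs1) were at least 2-fold higher than in the other cells in both libraries, beside 4.04% of all genes. In cluster 5 these were 2 of the 8 (Klf2 and Klf4), beside 2.26%, and in cluster 7 also 2 (Nos2 and Edn1), beside 2.77%. In cluster 0 it was Nos2 alone, beside 1.42%, and in cluster 3 Ptgs1 alone, beside 1.64%. None of the 8 met this in cluster 1 (0.557% of all genes), cluster 2 (4%) or cluster 4 (0.768%). At least 2-fold below the other cells in both libraries were 3 of the 8 in cluster 0 (Klf2, Klf4 and Ptgs1), beside 4.84% of all genes, and 3 in cluster 7 (Klf2, Ednrb and Ptgs1), beside 7.95%. These were 2 in cluster 1 (Nos2 and Ptgs1), beside 3.48%, and 1 each in cluster 3 (Nos2), beside 4.88%, cluster 5 (Ptgs1), beside 4.94%, and cluster 6 (Nos2), beside 6.16%. There was none in cluster 2 (0.652%) or cluster 4 (0.631%). These counts describe which genes stood apart in which cells and were not tested.

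**Figure D2:**
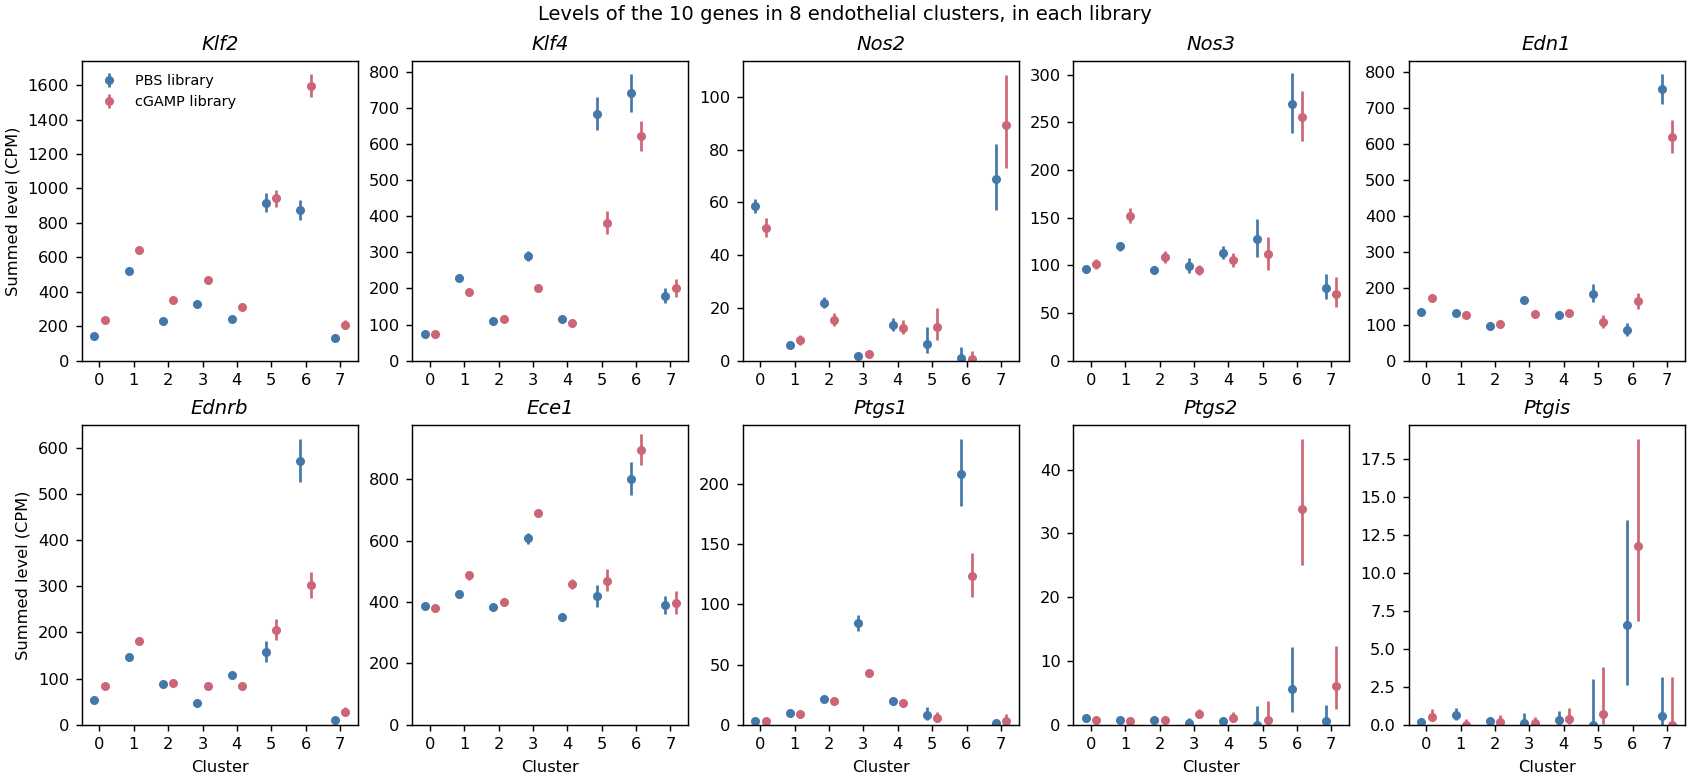
Summed level (CPM, linear axes from 0) of each gene in clusters 0 to 7, with the PBS library in blue and the cGAMP library in red; bars are 95% Poisson intervals for 1 library each. The highest point is in cluster 6 for 8 of the genes (in cluster 5 for Klf2 in the PBS library), and in cluster 7 for Nos2 and Edn1.

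Klf2 (chromosome 8, 72319033 to 72321656, plus strand, on GRCm38, the build of all positions here), the flow-induced factor that promotes an anti-inflammatory endothelium, had the largest difference of the 8 genes between the libraries. Its level was 283 CPM (280 to 287) in the PBS library and 432 CPM (427 to 437) in the cGAMP library, a log2 ratio of 0.61 (0.58 to 0.63). This ratio lay above those of 95.9% of all genes that reached 5 CPM. At 5000 UMIs per cell, 55.5% of PBS cells and 66.9% of cGAMP cells held a Klf2 UMI, against 85.1% and 94.7% without thinning. The median cell held 163 CPM in the PBS library and 267 CPM in the cGAMP library, so the difference was also seen in the typical cell.

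Within clusters, Klf2 was higher after cGAMP in 8 of 8, as were 12.8% of all genes, and the counting interval lay above 0 in 7. The exception was cluster 5, with 918 CPM in the PBS library and 943 CPM in the cGAMP library (log2 ratio 0.04, -0.08 to 0.15), where the direction turned without the richest cell of each library, at 887 and 885 CPM. The largest ratio was in cluster 6, from 872 to 1596 CPM (0.87, 0.76 to 0.98), and the next in the tip-like cluster 0, from 141 to 239 CPM (0.76, 0.70 to 0.83). Levels were lowest in both tip-like clusters, where cluster 7 had 131 CPM in the PBS library and 209 CPM in the cGAMP library, although its thinned share of cells was 41.5% and 35.7%. In the arterial-like cluster 1 they were 519 and 645 CPM, and in the stalk-like cluster 3 they were 331 and 468 CPM. In the order of levels, clusters 5, 6, 1 and 3 stood first in the PBS library, with overlapping intervals for clusters 5 and 6, and clusters 6, 5, 1 and 3 in the cGAMP library. Clusters 0 and 7, the last in both, had overlapping intervals.

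Klf4 (chromosome 4, 55527143 to 55532466, minus strand), the related flow-induced factor, did not follow Klf2 between the libraries. It was at 154 CPM in the PBS library and 154 CPM in the cGAMP library (0.01, -0.03 to 0.04), and 42.3% and 46.4% of thinned cells held a UMI. Within clusters it was lower after cGAMP in 6 of 8, as were 45.1% of all genes in at least 6 clusters, and the interval lay below 0 in 5. In cluster 5 it was 683 CPM and 381 CPM (-0.84, -0.999 to -0.69), and -0.73 without the richest cell of each library. The 6 mural markers in cluster 5 summed to 103 CPM in the PBS library, with Rgs5 at 85.3 CPM and Cspg4 at 0, and to 31.9 CPM in the cGAMP library, with Pdgfrb and Cspg4 at 0. Their part in the lower Klf4 and Edn1 of this cluster was not tested. In the stalk-like cluster 3 Klf4 was at 290 CPM (277 to 303) and 200.1 CPM (193 to 208), a log2 ratio of -0.53. Cluster 3 was 2.03-fold (PBS) and 1.42-fold (cGAMP) above the other cells. Clustered with no integration, stalk-like cells were 2.69-fold and 3.03-fold above them, so this ratio depends on how the cells were grouped. With the proportions of clusters held equal, the ratio of the whole libraries moved from 0.01 to -0.31, whereas that of Klf2 was 0.47.

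Between clusters the levels of Klf4 ran much like those of Klf2. Cluster 6 stood first, with 739 and 620 CPM, and the tip-like cluster 0 last, with 75.3 and 74.3 CPM. The order differed in cluster 7, which was last for Klf2 but for Klf4 reached 180 CPM in the PBS library and 200.01 CPM in the cGAMP library. Clusters 1 and 3 also changed places against Klf2, with Klf4 at 230 and 190 CPM in cluster 1 and 290 and 200.1 CPM in cluster 3. Their Klf4 intervals overlapped in the cGAMP library only. Across thinned single cells the correlation of Klf2 with Klf4 was 0.41 (PBS library) and 0.34 (cGAMP library), the highest of the 45 pairs of the 10 genes, whose medians were 0.01 and 0.03. A Klf4 UMI was found in 53.9% of Klf2-positive and 27.8% of Klf2-negative PBS cells, and in 52.4% and 34.4% of such cGAMP cells. The cells of a library share depth and preparation, and these correlations are a description.

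Both factors belong to the genes known to respond when tissue is digested into single cells. A list of 14 immediate-early and stress genes, such as Fos and Jun, summed to 5096 CPM in the PBS library and 6134 CPM in the cGAMP library, with 11 of the 14 higher and 3 lower and none at 0. The summed level of the list was highest in cluster 5 (11678 and 10394 CPM) and cluster 6 (10237 and 11634 CPM), as for Klf2 and Klf4. Over the 16 profiles of 8 clusters in 2 libraries, its log2 level had a correlation of 0.84 with Klf2 and 0.92 with Klf4. From PBS to cGAMP the list was higher in clusters 0 (4251 and 5061 CPM), 2 (3672 and 4842 CPM), 4 (3632 and 4911 CPM) and 6. It was lower in clusters 1 (7179 and 7036 CPM), 3 (7741 and 7427 CPM), 5 and 7 (6087 and 5648 CPM). The part of this list in the result for Klf2 and Klf4 was not tested.

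The genes whose profiles were most like that of Klf2, among 6045 genes with at least 20 CPM, were Grasp (r = 0.95), Clu (0.95) and the immediate-early gene Nr4a1 (0.94). Those most like Klf4 were Gm26532 (0.96), Sav1 (0.93) and Adcy4 (0.93). Profiles share libraries and were chosen by likeness, so these values order the genes only.

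Nos2 (chromosome 11, 78920787 to 78960254, plus strand) encodes the inducible nitric oxide synthase, which activated macrophages make in quantity and which needs no calcium signal. It was at 28.6 CPM (27.5 to 29.7) in the PBS library and 20.4 CPM (19.3 to 21.5) in the cGAMP library, a log2 ratio of -0.49 (-0.59 to -0.39), the 1 ratio below 0 among the 8 genes. The intervals of the levels did not overlap. At 5000 UMIs, 9.24% (8.12 to 10.5) of PBS cells and 7.08% (5.76 to 8.60) of cGAMP cells held a UMI, intervals that overlapped, against 33.7% and 31.5% without thinning.

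Nos2 was concentrated in tip-like cells. Cluster 0 held 65.8% of its PBS and 59.9% of its cGAMP UMIs, at 58.6 CPM and 50.3 CPM. Cluster 7 was higher, at 68.8 CPM and 89.3 CPM, and the intervals of clusters 0 and 7 overlapped in the PBS library but not in the cGAMP library. Both tip-like clusters together were 4.62-fold and 6.01-fold above the other cells. In the stalk-like cluster 3 the level was 1.87 and 2.40 CPM, and in cluster 6 a single UMI was found in each library. Clusters 0 and 7 also stood first by thinned share of cells, with 21.5% and 18.4% in cluster 0 and 20.8% and 25% in cluster 7. The share was at most 0.617% in cluster 3.

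The lower level of Nos2 in the cGAMP library was smaller within its main cluster. In cluster 0 the log2 ratio was -0.22 (-0.35 to -0.10) and in the proliferative cluster 2, from 22.0 to 15.5 CPM, it was -0.51 (-0.76 to -0.26). In the other 6 clusters the interval included 0, and 4 of the 8 clusters were higher after cGAMP. With cluster proportions held equal the ratio of the whole libraries was -0.14. Cluster 0 made up 28.0% of the PBS cells and 22.0% of the cGAMP cells.

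Macrophages are the usual source of Nos2. The 2 of their 8 markers that reached 5 CPM were both higher in the cGAMP library, and the part of macrophages in the level of Nos2 was not tested. The marker Lyz2, which ECs should lack, was found in 2.37% of thinned PBS cells and 5.65% of thinned cGAMP cells. The fibroblast marker Col1a1 was found in 0.654% and 0.075%. The share of Nos2 in cluster 3 (0.358% and 0.617%) was below Lyz2 in both libraries, and above Col1a1 only in the cGAMP library. It could not be told from background. In the tip-like cluster 0 the 8 markers summed to 12.7 CPM and 29.0 CPM, close to the whole libraries. In cluster 7 they summed to 65.4 CPM, with Lyz2 at 50.6 CPM, in the PBS library and to 53.2 CPM in the cGAMP library, with Adgre1 at 0 in both, and their part in the level of Nos2 there was not tested. Without the 1 cell that held 680 of the 688 neutrophil UMIs of cluster 7 in the cGAMP library, Nos2 was at 89.3 CPM there. The genes most like Nos2 in profile were Bmp2 (r = 0.96), Eif2b2 (0.95) and Adm (0.94), and Adm encodes the vasodilator adrenomedullin.

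Nos3 (chromosome 5, 24364810 to 24384474, plus strand), the endothelial nitric oxide synthase, was the most evenly spread of the genes above the minimum after Ece1. It was at 105 CPM (103 to 107) in the PBS library and 113 CPM (111 to 116) in the cGAMP library, a log2 ratio of 0.11 (0.07 to 0.16). It was found in 38.0% and 40.9% of thinned cells. Cluster 6 was highest, at 269 and 256 CPM, and cluster 7 lowest, at 76.8 and 70.4 CPM, a range of 3.50-fold and 3.63-fold. The other 6 clusters lay between 94.9 and 152 CPM, and most neighbours in the order had overlapping intervals.

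After cGAMP, Nos3 was higher in the arterial-like cluster 1, from 120 to 152 CPM (0.34, 0.25 to 0.44), and in the proliferative cluster 2, from 95.3 to 109 CPM (0.19, 0.09 to 0.29). The interval included 0 in the other 6. The most similar profiles were those of Nxn (r = 0.95) and Rab11a (0.94). Nos3 overlaps Atg9b and Gm15587 on the opposite strand of chromosome 5, and the sources used here do not say whether reads were counted by strand. These neighbours were at 4.31 and 0.76 CPM in the PBS library and 2.92 and 0.58 CPM in the cGAMP library.

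Nos2 and Nos3 stood opposite to each other in clusters 6 and 7, the extremes of both genes. Elsewhere Nos3 varied little. In the PBS library clusters 0 and 3 had 95.7 and 99.8 CPM of Nos3, with Nos2 at 58.6 and 1.87 CPM. Over the 16 profiles the correlation of Nos2 with Nos3 was -0.71, while across thinned cells it was -0.002 among PBS and -0.03 among cGAMP cells. Nos3 was found in 38.9% of Nos2-positive and 37.9% of Nos2-negative PBS cells, and in 36.2% and 41.3% of such cGAMP cells. The contrast of the 2 small clusters was thus not seen across all single cells.

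Edn1 (chromosome 13, 42301476 to 42307990, plus strand) encodes the precursor of endothelin-1, the strongest constrictor that endothelium makes. It was at 138 CPM (136 to 141) in the PBS library and 144 CPM (141 to 147) in the cGAMP library, a log2 ratio of 0.06 (0.02 to 0.10) that became -0.01 with cluster proportions held equal and -0.03 as a mean over cells. Cluster 7 stood far above the rest, at 751 CPM (711 to 793) and 619 CPM (575 to 666), 4.04-fold and 3.55-fold above the next cluster. A UMI was found in 83.0% and 71.4% of its thinned cells, against 32.0% and 33.8% of all thinned cells. With 2.19% and 2.16% of the cells, cluster 7 held 10.4% and 7.89% of the Edn1 UMIs.

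The level of cluster 7 did not rest on the cell with neutrophil UMIs. Without that cell it was 635 CPM in the cGAMP library, an alternative chosen after the data had been seen. It was 668 and 516 CPM without the cell richest in Edn1 of each library. The tip-like cluster 0 as a whole was at 136 and 174 CPM. Clustered at resolution 1.2, the 84 cells of cluster 7 were 52.2% of a larger cluster. Edn1 there had a log2 ratio over the other cells of 2.36 (PBS) and 2.06 (cGAMP), against 2.57 and 2.19 in cluster 7. Which cells share the high level thus depends on how the cells were grouped. The genes most like Edn1 in profile were Errfi1 (r = 0.96), Cited2 (0.95) and Bnip3 (0.94), of which Cited2 and Bnip3 are known targets of hypoxia-inducible factors. Bnip3 also leads cluster 7, so its likeness to Edn1 is not separate from the high level there. The part of hypoxia in the level of Edn1 was not tested.

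Between libraries the direction of Edn1 differed by cluster. It was higher after cGAMP in cluster 0 (0.36, 0.28 to 0.43) and in cluster 6, from 86.2 to 164 CPM (0.93, 0.58 to 1.29). It was lower in cluster 5, from 186 to 108 CPM (-0.79, -1.09 to -0.49), in cluster 3, from 169 to 129 CPM (-0.39, -0.49 to -0.28), and in cluster 7 (-0.28, -0.41 to -0.15). In cluster 6 a single cGAMP cell held 67 of 238 UMIs, the ratio was 0.64 without the richest cells, and the thinned share of cells was 31.9% (PBS) and 26.9% (cGAMP).

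Ednrb (chromosome 14, 103814625 to 103844402, minus strand) encodes the B-type endothelin receptor, which clears endothelin-1 and triggers nitric oxide release in endothelium. Over clusters it stood opposite to Edn1 mainly in cluster 7 and, in the PBS library, in cluster 6. Exceptions were cluster 5 of the PBS library, high in both (Edn1 186 CPM, Ednrb 157 CPM), and cluster 6 of the cGAMP library, with Edn1 at 164 CPM. Ednrb was at 93.1 CPM (91.2 to 95.1) in the PBS library and 108 CPM (105 to 110) in the cGAMP library, a log2 ratio of 0.21 (0.16 to 0.26). Cluster 6 was highest, at 572 and 302 CPM, and cluster 7 lowest, at 9.67 and 27.5 CPM, a range of 59.1-fold and 11.0-fold. The arterial-like clusters 5 (157 and 205 CPM) and 1 (148 and 182 CPM) followed cluster 6. Over the 16 profiles the correlation of Ednrb with Edn1 was -0.74, and across thinned cells it was -0.13 and -0.16, the lowest of the 45 pairs in the cGAMP library. Ednrb was found in 21.9% of Edn1-positive and 32.2% of Edn1-negative PBS cells and in 22.9% and 38.3% of such cGAMP cells.

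After cGAMP, Ednrb was higher in 6 of 8 clusters, with the interval above 0 in 5. The ratio was 0.84 (0.67 to 1.02) in the stalk-like cluster 3, from 46.9 to 84.2 CPM, and 0.63 (0.52 to 0.73) in the tip-like cluster 0, from 54.4 to 84.0 CPM. In cluster 7 it was 1.51 (0.61 to 2.45), on 17 and 32 UMIs. In cluster 6 the sign was the opposite (-0.92, -1.10 to -0.74), and a single PBS cell there held 123 of 610 UMIs, without which, and without the richest cGAMP cell, the ratio was -0.77. The thinned shares of cells in cluster 6 were 57.4% and 63.5%, so the lower sum was not matched by fewer cells with a UMI. Ednrb was also lower in cluster 4, at 107 and 84.1 CPM (-0.35, -0.49 to -0.21). Other markers differed between the libraries in cluster 6: lymphatic ones summed to 133 and 20.03 CPM (Prox1 128 and 16.6 CPM, Pdpn and Ccl21a at 0), proliferative ones to 595 and 162 CPM and mural ones to 25.3 and 5.53 CPM. Their part in the differences of Ednrb, Ptgs1 and Klf2 in this cluster was not tested.

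Ece1 (chromosome 4, 137862237 to 137965229, plus strand), the metalloprotease that cuts the endothelin precursor into its active form, was detected in 98.0% of PBS cells and 99.2% of cGAMP cells before thinning. It was at 412 CPM (408 to 416) in the PBS library and 494 CPM (488 to 499) in the cGAMP library, a log2 ratio of 0.26 (0.24 to 0.28), and 83.0% and 86.8% of thinned cells held a UMI. Cluster 6 (802 and 896 CPM) and the stalk-like cluster 3 (607 and 689 CPM) were highest, and the lowest cluster was 2.29-fold and 2.36-fold below cluster 6. Within clusters Ece1 was higher after cGAMP in 7 of 8, with the interval above 0 in 6, and the largest ratio was 0.39 (0.32 to 0.46) in cluster 4. The profiles most like it were those of Sntb2 (r = 0.94), Lbp (0.92) and Nfkbiz (0.92).

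**Figure D3:**
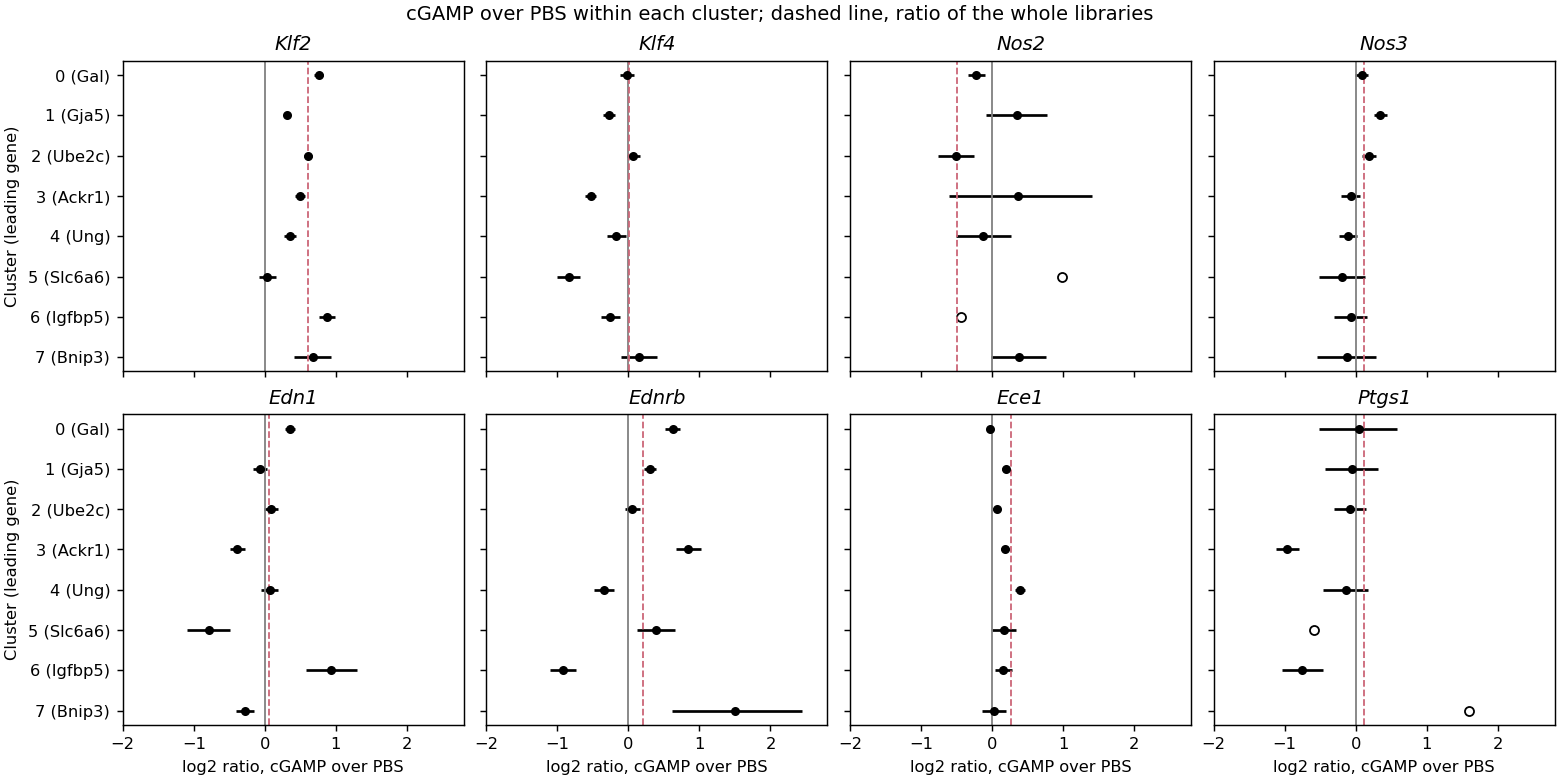
Log2 ratio of cGAMP over PBS within each of 8 clusters for the 8 genes that reached 5 CPM, with 95% counting intervals; open circles are clusters with under 10 UMIs in either library and have no interval drawn, and the red dashed line is the ratio of the whole libraries. Klf2 points lie at or right of 0 in 8 of 8 clusters, Ptgs1 lies at -0.96 in cluster 3 and -0.75 in cluster 6, and Edn1 and Ednrb lie on both sides of 0.

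Ptgs1 (chromosome 2, 36230426 to 36252272, plus strand) encodes cyclooxygenase-1, the constitutive enzyme that makes the shared precursor of prostacyclin and thromboxane. Over whole libraries it hardly differed, with 19.2 CPM (18.3 to 20.1) in the PBS library and 20.8 CPM (19.7 to 21.9) in the cGAMP library, a log2 ratio of 0.12 (0.01 to 0.22). It was found in 8.66% (7.58 to 9.85) and 10.6% (9.02 to 12.4) of thinned cells. Within the clusters where it was highest, the levels lay farther apart. In the stalk-like cluster 3 the level was 84.2 CPM (77.5 to 91.3) in the PBS library and 43.2 CPM (39.8 to 46.7) in the cGAMP library, a log2 ratio of -0.96 (-1.13 to -0.80). In cluster 6 it was 208 and 124 CPM (-0.75, -1.04 to -0.46). Cluster 3 made up 11.5% of the PBS cells and 24.3% of the cGAMP cells, and with cluster proportions held equal the ratio of the whole libraries was -0.61. Clustered with no integration, 251 PBS and 160 cGAMP cells were stalk-like, against 289 and 326 in cluster 3. Ptgs1 was then 9.28-fold (PBS) and 6.59-fold (cGAMP) above the other cells, against 6.07-fold and 3.01-fold. Those stalk-like cells took in 99 of the 100 cells of cluster 6. These ratios thus depend on how the cells were grouped.

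The distribution of Ptgs1 ran opposite to that of Nos2. Cluster 3 held 33.1% of its PBS and 46.5% of its cGAMP UMIs, and the small cluster 6 held 12.6% and 13.6%. In cluster 0 the level was 2.78 and 2.86 CPM, and in cluster 7 there were 2 and 4 UMIs. A Ptgs1 UMI was found in 0.885% of 226 Nos2-positive and 9.46% of the Nos2-negative thinned PBS cells, and in 0 of 94 Nos2-positive cGAMP cells, which allows a share of up to 3.19% when 3 counts are taken as the floor, against 11.4% of the Nos2-negative ones. Over the 16 profiles the correlation of the pair was -0.81. The genes most like Ptgs1 in profile were Sele (r = 0.98), which encodes the adhesion molecule E-selectin of venules, Bgn (0.96) and Lbp (0.95).

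Platelets are rich in Ptgs1 and adhere to activated venules. The 4 platelet markers summed to 41.5 and 44.4 CPM in cluster 3 and to 49.7 and 81.5 CPM in cluster 6, above the 16.2 and 24.8 CPM of the whole libraries. Most of this was Itga2b (39.4 and 37.1 CPM in cluster 3, 47.8 and 70.5 CPM in cluster 6), while Ppbp and Gp9 were at 0 in cluster 6 and Gp9 was at 0 in cluster 3. From PBS to cGAMP the list was higher in cluster 6. In cluster 3 its intervals overlapped (36.8 to 46.5 and 41.0 to 48.0 CPM), and Itga2b was slightly lower. Its part in the level of Ptgs1 was not tested.

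**Figure D4:**
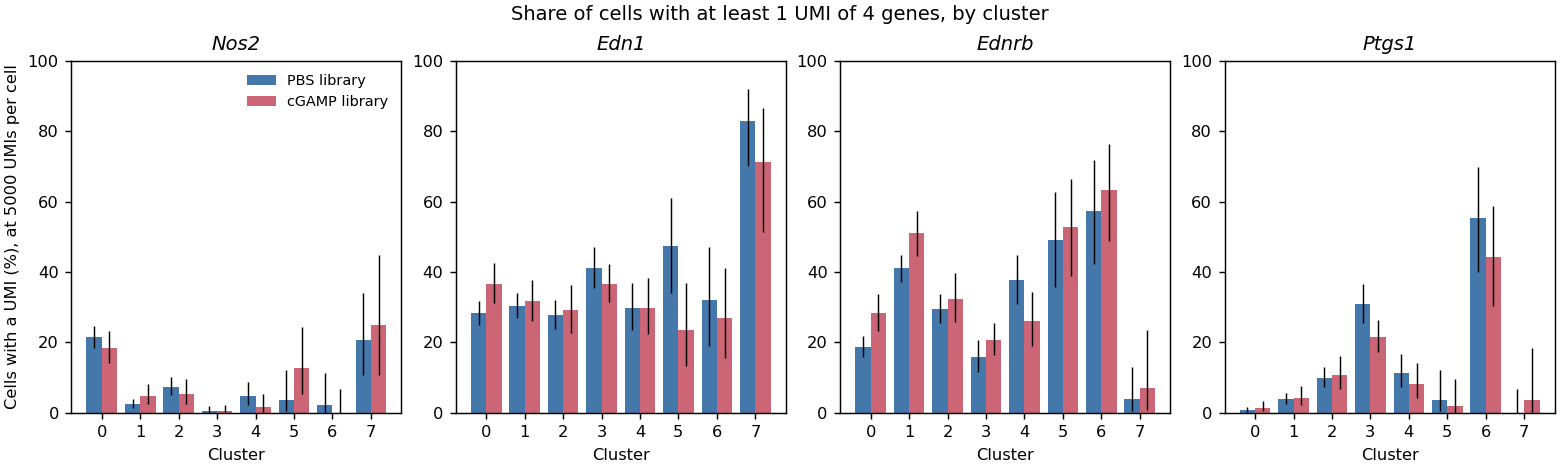
Share of cells with at least 1 UMI of Nos2, Edn1, Ednrb and Ptgs1 in clusters 0 to 7, after each cell was thinned to 5000 UMIs; bars start at 0, blue is the PBS and red the cGAMP library, and lines are exact 95% binomial intervals. Nos2 is highest in clusters 0 and 7, Edn1 in cluster 7 (83.0% and 71.4%), and Ednrb and Ptgs1 in cluster 6.

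Ptgs2 (chromosome 1, 150100031 to 150108227, plus strand), the inducible cyclooxygenase-2, was close to absent. It had 73 UMIs (0.79 CPM, 0.62 to 0.997) in the PBS library and 114 UMIs (1.80 CPM, 1.48 to 2.16) in the cGAMP library. After thinning, 0.409% and 0.678% of cells held a UMI. Of genes that ECs should lack, Lyz2 was found in 2.37% and 5.65%, Col1a1 in 0.654% and 0.075% and Epcam in 0% of thinned cells. The shares of Ptgs2 were below Lyz2 in both libraries, and above Col1a1 only in cGAMP cells. They thus lay within the range of these genes. An exception was cluster 6 of the cGAMP library, with 49 of the 114 UMIs in 8 of 52 cells (33.8 CPM, against 5.62 CPM and 6 UMIs in the PBS library). Of these, 1 cell held 17 UMIs and 5 cells held 44, so the value describes a few cells. In cluster 7 of the cGAMP library there were 7 UMIs, and 1 without the cell rich in neutrophil UMIs. The log2 ratio of the whole libraries, 1.18 (0.75 to 1.63), was 0.63 without the 5 richest cells.

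Ptgis (chromosome 2, 167191805 to 167240604, minus strand) encodes prostacyclin synthase, which completes the synthesis of the vasodilator prostacyclin. It had 34 UMIs (0.37 CPM) in the PBS library and 33 UMIs (0.52 CPM) in the cGAMP library, and its ratio (0.50, -0.24 to 1.23) could not be told from 0 at this depth. Cluster 6 held 7 and 17 of them, in 2 of 48 and 5 of 52 cells. The fibroblast markers, mainly Dcn, summed to 48 UMIs in cluster 6 of the cGAMP library and 3 in that of the PBS library, with Col1a1, Lum and Pdgfra at 0 in the former. The cell with the most of them, 22 UMIs, held 9 Ptgs2 and 4 Ptgis UMIs. Of the cGAMP cells of cluster 6, 9 of 52 held a fibroblast UMI, among them 5 of the 8 with Ptgs2 and 2 of the 5 with Ptgis. Without the richest of them the levels in that cluster were 28.5 CPM for Ptgs2 and 9.26 CPM for Ptgis, and the part of the other cells was not tested.

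Of 84 other genes of the same pathways, written as a list, 71 were in the files and 47 reached 5 CPM. Of the 47, 18 were higher and 29 lower in the cGAMP library, beside 3840 higher and 5668 lower of all 9508 genes that reached 5 CPM. None of the 47 was 2-fold higher and 2 were 2-fold lower, beside 1.82% and 1.69% of all genes. Their median log2 ratio was -0.11, beside -0.08 for all genes.

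Among 16 genes of flow sensing and response, 3 were higher and 13 lower. Aqp1, a water channel that flow is known to raise, was at 1504 CPM in the PBS library and 751 CPM in the cGAMP library, a log2 ratio of -1.002 (-1.02 to -0.99) that lay at the 2-fold limit. In the stalk-like cluster 3 it was 3736 and 1048 CPM. Klf6, a factor of the same family, was at 378 and 348 CPM (-0.12). Plpp3, a lipid phosphatase that Klf2 is known to raise, was at 185 and 277 CPM (0.58, 0.55 to 0.61), and it was higher after cGAMP in 7 of 8 clusters, the exception being cluster 6 with 497 and 466 CPM.

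Among 18 genes of nitric oxide synthesis and breakdown that reached 5 CPM, 7 were higher and 11 lower. Hsp90ab1 and Hsp90aa1, chaperones that bind the endothelial synthase, were at 3466 and 3465 CPM and at 579 and 613 CPM. Cav1, the caveolar protein that holds the endothelial synthase inactive, was at 770 and 427 CPM (-0.85, -0.87 to -0.83) and was lower in all 8 clusters. Its highest cluster was cluster 7, with 1865 and 1034 CPM, and its lowest cluster 6, with 221 and 79.4 CPM, whereas Nos3 was highest in cluster 6 and lowest in cluster 7.

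No other endothelin gene reached 5 CPM. The 3 in the files, the A-type receptor Ednra, the converting enzyme Ece2 and the peptidase Mme, were each below 0.2 CPM in both libraries. Of 5 prostanoid genes that reached the minimum, 4 were higher and 1 lower, with Ptges3, a prostaglandin E synthase, at 214 and 240.2 CPM, the prostaglandin importer Slco2a1 at 112 and 155 CPM (0.46, 0.42 to 0.50) and the exporter Abcc4 at 25.4 and 24.2 CPM. Slco2a1 followed Ptgs1 over clusters, with 783 and 666 CPM in cluster 6, 430 and 266 CPM in cluster 3 and 16.3 and 18.7 CPM in cluster 0. Of 8 other vasoactive genes, 4 were higher and 4 lower, among them the receptor S1pr1 (392 and 433 CPM), the peptidase Ace (41.3 and 45.3 CPM) and the natriuretic peptide receptor Npr1 (44.0 and 38.0 CPM). Npr3, the clearance receptor of natriuretic peptides, named after its values were seen, was the second gene 2-fold lower, at 11.9 and 3.33 CPM (-1.84, -2.06 to -1.63).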

How the data were processed

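The authors aligned the reads to mm10 and counted UMIs with Cell Ranger 3.0.0, and with Seurat 3.1.1 kept cells with at least 500 genes and under 10% mitochondrial UMIs and genes found in at least 3 cells. A first clustering then served to take out contaminating cell types without Pecam1, which left the 2517 and 1340 cells used here. The values the authors deposited are the natural log of 1 plus UMIs per 10000 in each cell. From these, whole UMI counts were recovered (100% of the values above 0 in both libraries came within 0.01 of a whole number), and summed over cells. Whether reads were counted by strand is not given in the sources used here, so overlapping genes on opposite strands cannot be told apart. Doublets were not removed. With 1 library per group no test was made, and no columns of values were left unused.

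Clusters were made in R 4.3.3 by Seurat 5.3.0 (1767 of 2500 variable genes kept, anchors between libraries, 30 principal components, Louvain resolution 0.5). Each cluster was held to the 1 list, of stalk-like, tip-like, proliferative and arterial markers, with the largest share of its markers raised at least 2-fold. It took that name only where at least 3 were raised, at least 1 was among its 10 leading genes, and no other list had more of them there. Sums, intervals and thinning to 5000 UMIs per cell used numpy 2.4.6, scipy 1.17.1 and pandas 2.3.3, and the sums and intervals were tested on simulated data. Thinning left out 70 PBS and 13 cGAMP cells.

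The 10 genes and all lists were chosen with earlier results of these data known. Other genes were named by rule: of the pathway list, those 2-fold apart with at least 20 CPM and the 3 with the highest mean level per axis, and for each of the 10 genes the 3 with the highest correlation of log2(CPM + 5) over the 16 profiles of clusters and libraries. Of the genes so named, 1 is not reported here. Alternatives changed the scaling, weighting, cell filters, thinning, CPM minimum and clustering.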

Additional observations from a re-analysis of the deposited data

Results flagged for a closer look

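Edn1 was picked out because its log2 ratio of cGAMP over PBS had opposite signs in different clusters. It was 0.93 in cluster 6 and -0.79 in cluster 5, a gap of 1.72, with counting intervals above 0 in 2 clusters and below 0 in 3. Ednrb was picked out for the same reason, with 1.51 in cluster 7 and -0.92 in cluster 6, a gap of 2.43, and intervals above 0 in 5 clusters and below 0 in 2. With 1 library per group, neither difference between clusters was tested. Without the cell richest in the gene in each library, an alternative chosen after the data had been seen, the values were 0.64 and -0.98 for Edn1 and 1.16 and -0.77 for Ednrb.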

How the results depend on the processing

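No paired analysis was possible because each group held 1 library. Of the pathway list, 2 genes were 2-fold apart, against 1 under median-of-ratios scaling, 1 with a minimum of 20 CPM and 9 with no minimum. Of the 10 genes, 0 were 2-fold apart, against 1 with no minimum (Ptgs2). The median log2 ratio of 0.11 was 0.24 after thinning to 5000 UMIs. The pairs of gene and state at least 2-fold above the other cells in both libraries numbered 2 (Nos2 in tip-like and Ptgs1 in stalk-like cells), and both were found under every clustering tried. There were 4 pairs at resolution 1.2, 5 with all variable genes and 4 with no integration. Ednrb in stalk-like cells of the PBS library was below the other cells (-1.05), but above them at resolution 0.3 (0.36) and with no integration (0.50). The stalk-like cells of those settings took in 100 and 99 of the 100 cells of cluster 6, where Ednrb was highest. Over 7 alternatives, among them leaving out cells above 5% mitochondrial UMIs, the log2 ratio of Klf2 was 0.47 to 0.68 and that of Nos2 -0.60 to -0.14 (0.66 and -0.60 without those cells), while those of Klf4 (-0.31 to 0.07), Edn1 (-0.03 to 0.13) and Ptgs1 (-0.61 to 0.39) took both signs. Values resting on few UMIs, as for Ptgs2, Ptgis and clusters 5 to 7, are limited by depth, and nothing here separates the treatment from the mouse.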

Other observations

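Genes around the cofactor of nitric oxide synthases, named after their values were seen, differed in opposite directions. Gch1, the rate-limiting enzyme of tetrahydrobiopterin synthesis, was at 57.8 CPM in the PBS library and 89.4 CPM in the cGAMP library (log2 ratio 0.63, 0.57 to 0.68), and it was higher after cGAMP in each of the 8 clusters. Gchfr, which encodes its feedback regulator, was at 35.4 and 24.2 CPM (-0.55, -0.64 to -0.46), lower in 7 of 8 clusters, with cluster 5 the exception at 12.2 and 18.3 CPM. Nosip, which encodes a protein that binds the endothelial synthase, was at 28.7 and 45.1 CPM (0.65, 0.57 to 0.73). Cavin1, a coat protein of caveolae, was at 290 and 180.2 CPM (-0.68, -0.72 to -0.65) and was lower in each of the 8 clusters, as was Cav1.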
